A study of Mus musculus with 8 samples.

Results

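Apoe, Clu, Apod, Abca1, Abca7, Abcg1, Lrp1, Vldlr and Lrp8 are 9 genes that make, load and take up lipoprotein particles. They were chosen by name, from what they are known to do, out of the 30211 genes counted in single nuclei of mouse hippocampus, and all 9 were detected. The study used 10x single-nucleus RNA sequencing (sn-RNAseq) to ask what loss of Gsap, which encodes the gamma-secretase activating protein, does to hippocampal cell types. It comprised 8 libraries, each from 1 mouse labelled C57BL/6 (C57BL/6N in the study's methods). Of these, 3 WT and 3 GKO mice were 7 months old, and a single J20;WT and a single J20;GKO animal were 6 months old. In GKO mice, floxed Gsap exons had been removed in all tissues with a CMV-Cre deleter, so the loss is not limited to a cell type or to adult life. J20 mice carry a human APP transgene with the Swedish and Indiana mutations, driven by the PDGFB promoter, which is active mainly in neurons. J20;WT mice had this transgene and intact Gsap, and J20;GKO mice had the transgene and the Gsap deletion.

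The deposited matrices held 33314 barcodes, and 32041 nuclei with at most 5% mitochondrial UMIs and 200 to 7500 genes were kept. A UMI is 1 counted RNA molecule. Totals ran from 21020159 to 43310978 UMIs per library, with medians of 4579 to 6438.5 UMIs per nucleus. Any 2 libraries shared 2 to 27 barcodes. The deposited data carried 3 dates, which are used here as batches. WT 1 and GKO 1 had the first, the other WT and GKO libraries and J20;GKO the second, and J20;WT the third. WT 1, GKO 1 and J20;GKO had 2135 to 2410 CPM (UMIs scaled to a common total) of Xist, the X-inactivation RNA of female cells, and the other 5 libraries had 1.68 to 3.00 CPM. The Y-linked gene Eif2s3y was at 119 to 251 CPM in those 5 libraries and at 0.0890 to 0.115 CPM in the 3 with high Xist. Among WT and GKO mice, date and sex-linked expression therefore cannot be told apart, and the J20 pair differed in both. Gsap itself was counted at 22.5, 23.0 and 22.3 CPM in WT and at 19.8, 21.8 and 22.0 CPM in GKO libraries. UMIs may lie outside the removed exons, so these counts do not check the genotype, and the groups are used as labelled.

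In the brain, lipids travel between cells on particles built on apolipoproteins, of which apolipoprotein E and clusterin (apolipoprotein J) are the best known. ATP-binding cassette transporters such as ABCA1 and ABCG1 move cholesterol and phospholipid out of cells onto these proteins, and receptors of the low-density lipoprotein receptor family take the loaded particles up. APOE, CLU and ABCA7 are established risk loci for late-onset Alzheimer's disease, and VLDLR and the product of Lrp8 (ApoER2) also receive the extracellular signal reelin.

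Nuclei were assigned to types by summed UMIs of marker genes, none of them among the 9. This gave 12726 excitatory neurons, among them 5171 dentate granule, 2848 CA1, 902 CA3 and 1167 subiculum or cortex neurons. It also gave 1660 inhibitory neurons, 195 Cajal-Retzius cells, 7086 oligodendrocytes, 2716 astrocytes, 2069 microglia, 1112 oligodendrocyte precursors (OPC) and 173 fibroblasts. These 11 types had at least 10 nuclei in at least 6 libraries, in fact in all 8. Of the astrocyte nuclei, 94.1% fell into clusters of the same name, and of the dentate granule nuclei 95.7%. Among the 11 types used below the share was lowest for subiculum or cortex neurons (71.9%) and CA1 neurons (73.1%). Another 776 nuclei passed several gates, and 1780 nuclei with under 2000 UMIs and 1398 with more passed none. A level below is CPM of all UMIs of a type in a library, given as mean ± SD over 8 libraries, 1 mouse each. Since longer genes can collect more nuclear UMIs, levels are compared between types for 1 gene and not between genes. Neighbours in the order of levels were compared within libraries by an exact two-sided sign-flip permutation test on log2(CPM + 1), adjusted by Benjamini-Hochberg over 90 pairs. A fold is 2 to the mean difference of log2(CPM + 1) within libraries, so over a type near 0 CPM it depends on the added 1. With 8 libraries the smallest p of the test is 0.00781. All 20 pairs that passed an adjusted p of 0.05 were at that value, with an adjusted p of 0.0352, and differed the same way in 8 of 8 libraries. With any 1 WT or GKO library left out no pair passed, with the smallest p of the test at 0.0156 and the smallest adjusted p at 0.0611 to 0.0740.

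**Figure D1:**
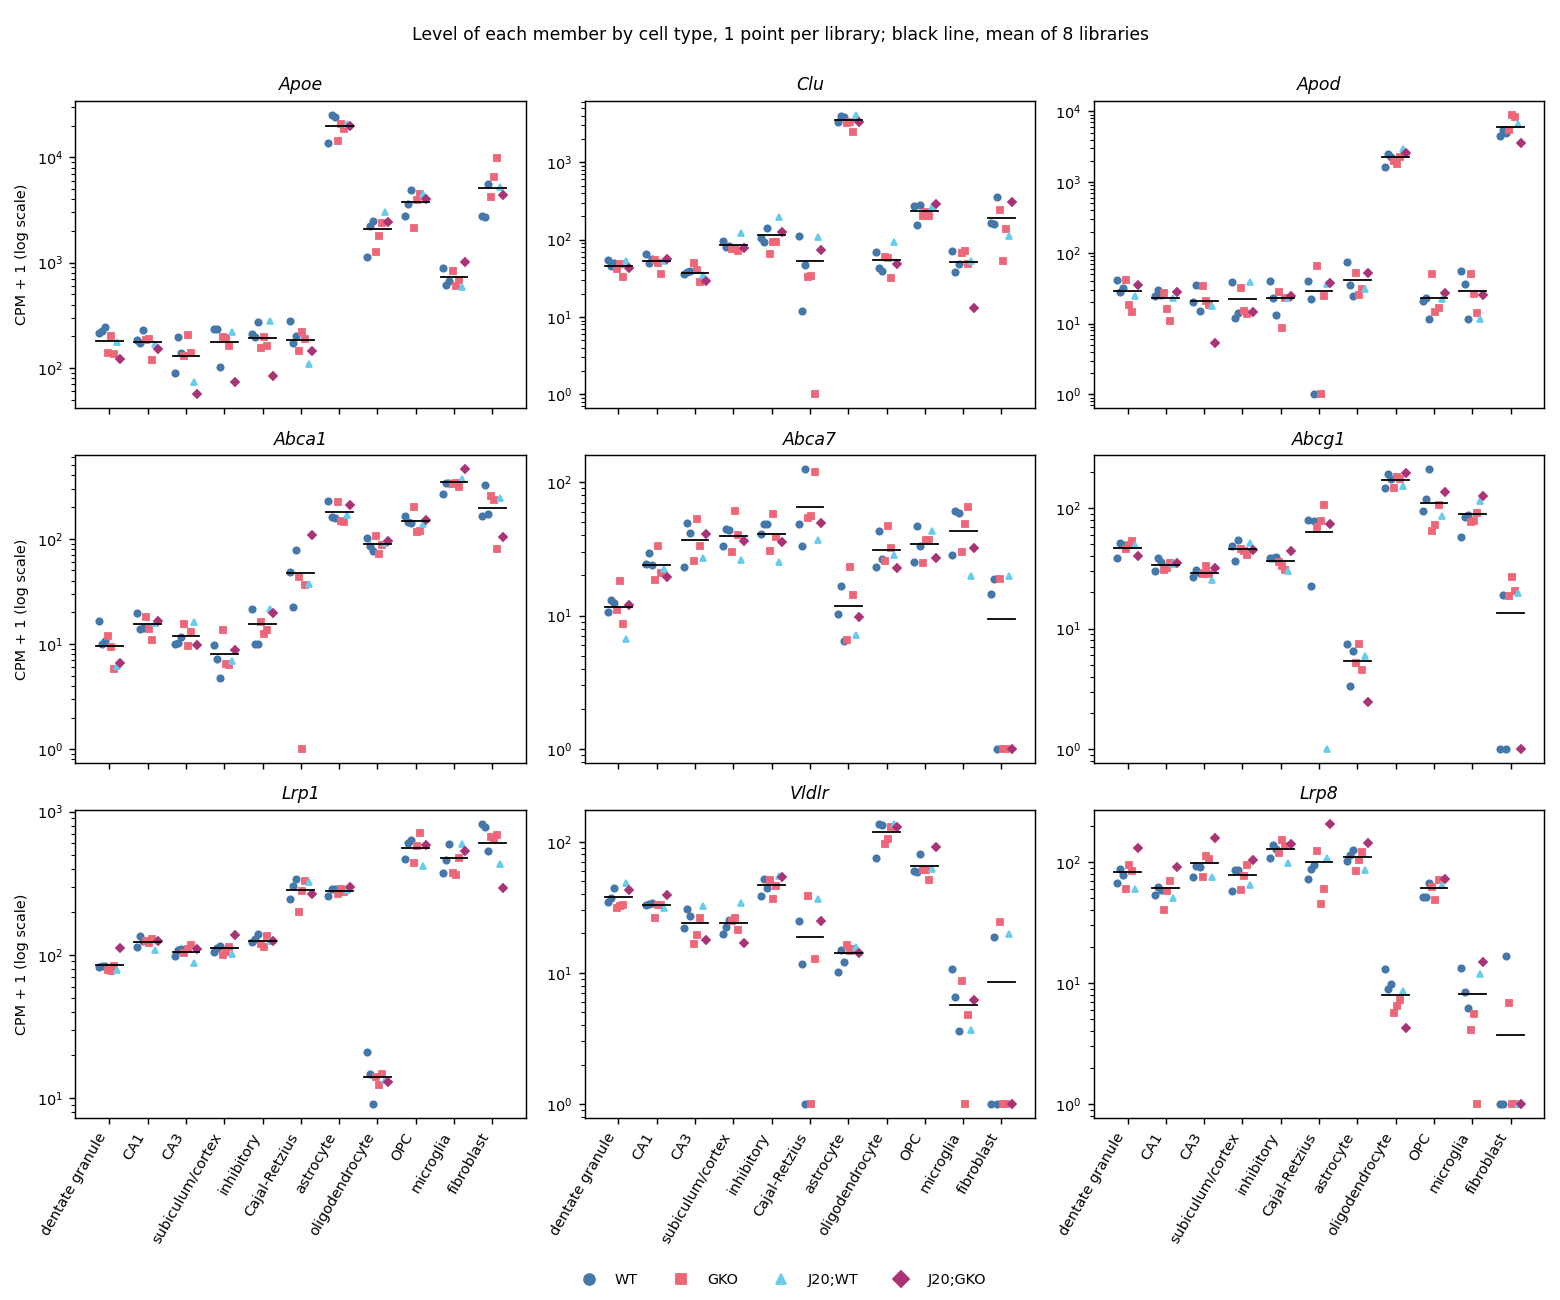
Level of each of the 9 genes (CPM + 1, log scale) in 11 cell types, 1 point per library coloured by group, with the mean of 8 libraries as a black line. Apoe and Clu peak in astrocytes, Apod in fibroblasts and oligodendrocytes, Abca1 in microglia, Abcg1 and Vldlr in oligodendrocytes, while Lrp1 is lowest in oligodendrocytes.

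Apoe, the main apolipoprotein made in brain, was highest in astrocytes among the 11 types. Its astrocyte level was 13630, 25500 and 24210 CPM in WT 1 to WT 3, and 14410, 20830 and 18690 CPM in GKO 1 to GKO 3. It was 20720 CPM in J20;WT and 19900 CPM in J20;GKO. The 2 libraries of the first date were the lowest, and the other 6 lay above both whatever their genotype. The astrocyte mean of 19740 ± 4178 CPM was 4.07-fold that of the next type, fibroblasts at 5148 ± 2287 CPM, a difference of 2.03 on the log2 scale (adjusted p 0.0352, exact permutation test). Fibroblasts and OPC (3786 ± 942 CPM) did not differ beyond their spread, with fibroblasts higher in 7 of 8 libraries. Below them, each step passed the test: OPC exceeded oligodendrocytes (2090 ± 650 CPM) 1.84-fold, oligodendrocytes exceeded microglia 2.75-fold and microglia exceeded inhibitory neurons 3.95-fold. Oligodendrocytes shared the low level of the first date, with 1127 CPM in WT 1 and 1248 CPM in GKO 1 against 1808 to 3025 CPM elsewhere. In microglia the highest values were 1004 CPM in J20;GKO, 889 CPM in WT 1 and 833 CPM in GKO 1, the 3 libraries with high Xist. The other 5 had 586 to 685 CPM.

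The Apoe gene lies on the minus strand of chromosome 7 (GRCm38 7:19696109-19699188), and Apod on the minus strand of chromosome 16 (16:31296192-31314808). Abca1 lies on the minus strand of chromosome 4 (4:53030787-53159895). The 150 bases before the start of these 3 genes are shown because each was highest in another of the 11 types. They are 3 of the 7 members present in the RefSeq promoter table (build GRCm38.p6). The windows are chr7:19699189-19699338 for Apoe, chr16:31314809-31314958 for Apod and chr4:53159896-53160045 for Abca1, read 5′ to 3′ on the minus strand.
Apoe: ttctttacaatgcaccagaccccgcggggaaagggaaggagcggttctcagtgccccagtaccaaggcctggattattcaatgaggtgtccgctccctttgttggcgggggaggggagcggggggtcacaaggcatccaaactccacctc
Apod: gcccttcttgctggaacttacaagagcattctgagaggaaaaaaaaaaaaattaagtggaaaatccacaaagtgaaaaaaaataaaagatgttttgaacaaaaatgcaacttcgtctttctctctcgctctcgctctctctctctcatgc
Abca1: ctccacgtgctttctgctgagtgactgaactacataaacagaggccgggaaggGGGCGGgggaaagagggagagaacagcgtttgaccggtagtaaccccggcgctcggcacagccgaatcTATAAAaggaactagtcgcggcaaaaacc
Capitals mark matches to the motifs searched on both strands, which do not overlap. The first was TATAAA, found in 7.57% of 32851 promoter windows of this length. The other was GGGCGG, the core of a GC box, found in 28.6% of them. Abca1 held 1 match of each, and the Apoe and Apod windows held neither string of letters. A match is a description of the sequence and not a measured binding site.

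In neurons Apoe was low. The 6 neuron types ran from 193 ± 63.6 CPM in inhibitory neurons to 128 ± 53.7 CPM in CA3 neurons. Cajal-Retzius cells (182 ± 52.6 CPM), dentate granule neurons (181 ± 45.7 CPM), subiculum or cortex neurons (177 ± 60.3 CPM) and CA1 neurons (174 ± 31.6 CPM) lay between them. No neighbouring pair among the 6 passed the test (adjusted p 0.158 to 1, exact permutation test). Excitatory neurons as a class held 0.936 ± 0.267% of the astrocyte CPM. With clusters in place of the gates this share was 0.560 ± 0.139%, and without nuclei called as doublets it was 0.653 ± 0.401%. Doublet calling did not work in WT 1 (1 nucleus called) and GKO 1 (0 called), so the latter value mixes cleaned and uncleaned libraries.

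Free RNA in droplets gives every nucleus some UMIs of genes it does not express. The neuronal share was therefore set beside that of genes with their highest level in other cell types. Excitatory neurons held 1.05% of the microglial level of Cx3cr1 (a chemokine receptor). They held 1.37% of the astrocyte level of Slc1a3 and 2.79% of that of Slc1a2, both glutamate transporters. Over the 12 reference genes the range was 0.282% (C1qa) to 2.80% (Mbp, a myelin protein). The neuronal Apoe share lay inside this range, which does not separate free RNA from low expression. The 2 highest reference genes differed between excitatory and inhibitory neurons. Mbp was at 98.5 ± 5.92 against 55.8 ± 15.9 CPM, and Slc1a2 at 201.7 ± 24.7 against 101 ± 23.8 CPM. Whether neurons express these 2 genes at a low level was not tested. Thinned to 1000 UMIs per nucleus, 11.3 ± 1.59% of excitatory neurons (median depth 10886 UMIs) had an Apoe UMI. The same depth gave Apoe in 99.5 ± 0.383% of astrocytes (median depth 3688.5 UMIs), 90.6% of OPC, 73.7% of oligodendrocytes and 34.5 ± 3.88% of microglia. Before thinning, 60.1% of excitatory neurons had an Apoe UMI, so most of that share went with depth.

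**Figure D2:**
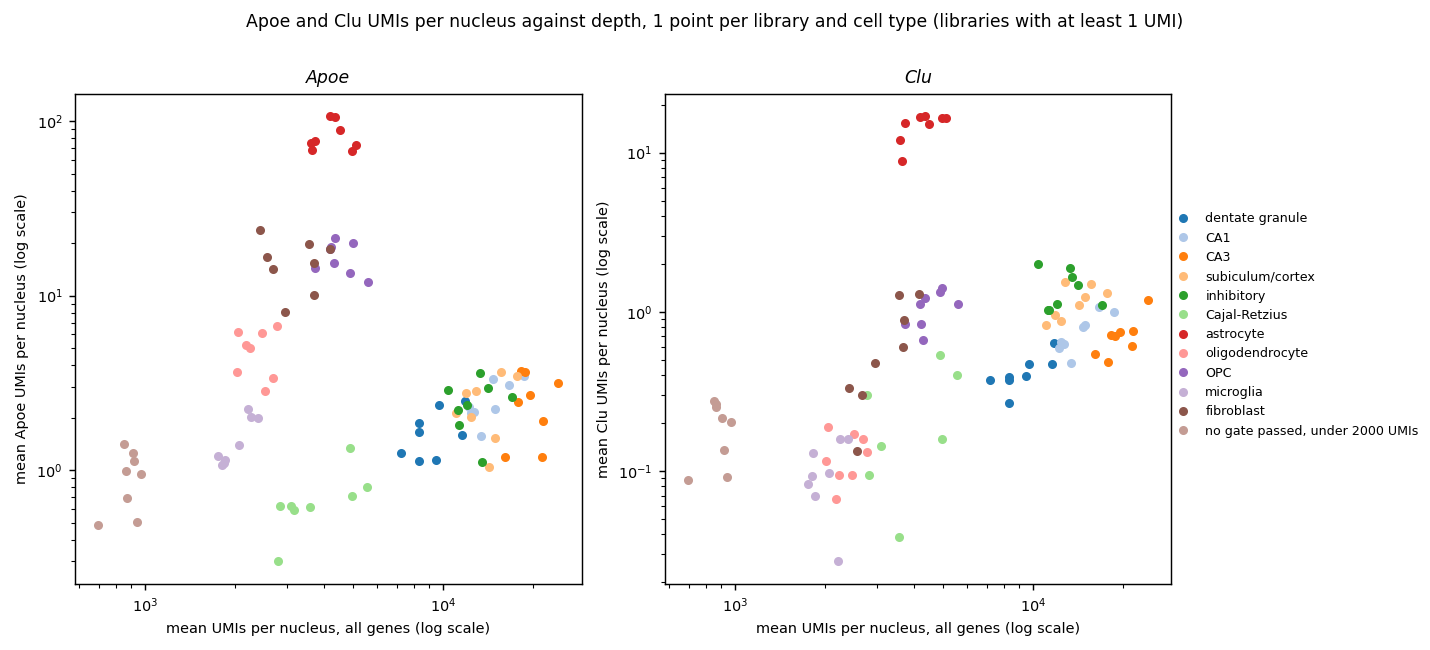
Mean Apoe UMIs (left) and Clu UMIs (right) per nucleus against mean UMIs of all genes per nucleus, both on log scales, 1 point per library and cell type with at least 1 UMI. Astrocytes stand apart at a mean of 82.8 Apoe UMIs per nucleus, while the excitatory and inhibitory neuron types, at greater depth, have means of 1.69 to 2.53.

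Microglia had 736 ± 155 CPM of Apoe, which was 3.99 ± 1.58% of astrocytes and 1.52 ± 0.481 UMIs per nucleus at a median depth of 1945 UMIs. Among reference genes of other types, microglia held 3.97% of the oligodendrocyte level of Mbp and 1.14% of the astrocyte level of Slc1a2. They held 14.2% of the astrocyte level of Slc1a3. The microglial Apoe share therefore lay beside that of Mbp, above that of Slc1a2 and below that of Slc1a3. How much of it came from free RNA was not tested. The 1780 shallow nuclei that passed no gate held 1053 ± 375 CPM of Apoe, or 5.70% of astrocytes.

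Clu, which encodes clusterin, an extracellular chaperone carried on lipoprotein particles, followed Apoe in its highest type, with a larger fold to the next type. Excitatory neurons held 0.936% of the astrocyte level of Apoe and 1.53% of that of Clu, so Clu fell less towards these neurons. Astrocytes had 3354, 4003 and 3886 CPM of Clu in WT 1 to WT 3 and 3249, 3332 and 2440 CPM in GKO 1 to GKO 3. J20;WT had 4138 CPM and J20;GKO had 3359 CPM. The astrocyte mean of 3470 ± 542 CPM was 14.8-fold that of OPC (236 ± 47.7 CPM), a log2 difference of 3.89 (adjusted p 0.0352, exact permutation test). OPC, fibroblasts (192 ± 103.5 CPM) and inhibitory neurons (113 ± 39.7 CPM) did not differ from one neighbour to the next.

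Among neurons, Clu was highest in inhibitory and lowest in CA3 neurons, and no pair of neurons next to each other in the order passed (adjusted p 0.0680 to 0.524, exact permutation test). Subiculum or cortex neurons (84.2 ± 16.4 CPM) exceeded oligodendrocytes (54.2 ± 19.4 CPM), the next type in order, 1.60-fold in 8 of 8 libraries. Cajal-Retzius cells (51.6 ± 41.7 CPM), CA1 neurons (51.5 ± 8.22 CPM), microglia (50.2 ± 19.6 CPM), dentate granule neurons (45.1 ± 6.97 CPM) and CA3 neurons (35.9 ± 6.68 CPM) followed without a step that passed the test. Inhibitory neurons held 3.23 ± 0.867% of the astrocyte level of Clu and 1.00 ± 0.346% of that of Apoe, so the 2 genes did not keep 1 ratio between these types. Among the 12 reference genes, inhibitory neurons held at most 2.06% (Cst3). Thinned to 1000 UMIs, 9.99 ± 4.98% of inhibitory and 8.15 ± 1.59% of subiculum or cortex neurons had a Clu UMI, against 3.56 ± 0.730% of dentate granule and 2.47 ± 1.54% of CA3 neurons. The Apoe shares of the same 4 types lay between 10.1% and 11.8%.

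Apod, a lipocalin that binds small lipids, had a different pattern from the other particle genes. Fibroblasts had 4556, 5422 and 4873 CPM in WT 1 to WT 3 and 5469, 9038 and 8349 CPM in GKO 1 to GKO 3. J20;WT fibroblasts had 6534 CPM and J20;GKO fibroblasts 3520 CPM. The fibroblast mean of 5970 ± 1895 CPM was 2.59-fold that of oligodendrocytes (2243 ± 421 CPM), and oligodendrocytes were 58.1-fold above astrocytes (39.9 ± 17.7 CPM), each in 8 of 8 libraries (adjusted p 0.0352, exact permutation test). The first of these steps rests on 14 to 46 fibroblast nuclei per library, and it did not pass with clusters in place of the gates. Below astrocytes the order was dentate granule neurons (28.4 ± 9.96 CPM), microglia (27.8 ± 16.9 CPM), Cajal-Retzius cells (27.6 ± 21.3 CPM), OPC (22.2 ± 11.8 CPM), CA1 neurons (22.1 ± 6.56 CPM), inhibitory neurons (22.0 ± 9.20 CPM), subiculum or cortex neurons (21.3 ± 11.9 CPM) and CA3 neurons (19.8 ± 9.73 CPM). None of these neighbours differed beyond their spread, and excitatory neurons held 0.465% of the fibroblast level. OPC, the precursors of oligodendrocytes, thus carried Apod at the level of neurons while the mature cells carried it at 1642 CPM or more in every library.

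Among the exporters, Abca1, which loads cholesterol and phospholipid onto lipid-poor apolipoproteins, was highest in microglia among the 11 types. Microglia had 263, 334 and 335 CPM in WT 1 to WT 3, 328, 339.6 and 312 CPM in GKO 1 to GKO 3, 367 CPM in J20;WT and 455 CPM in J20;GKO. Both J20 libraries lay above all 6 libraries without the transgene. The microglial mean of 342 ± 54.6 CPM was 1.88-fold that of fibroblasts (196 ± 81.6 CPM), with a log2 difference of 0.91 in 8 of 8 libraries (adjusted p 0.0352, exact permutation test). The fibroblast values rest on 4 to 43 Abca1 UMIs per library, and in WT 2 the 2 types were close (334 against 321 CPM). Fibroblasts and astrocytes (178 ± 34.98 CPM) did not differ. Astrocytes exceeded OPC (146 ± 26.4 CPM) 1.22-fold and OPC exceeded oligodendrocytes (88.5 ± 11.7 CPM) 1.63-fold, each in 8 of 8 libraries. Cajal-Retzius cells stood at 46.0 ± 33.4 CPM. The other neurons were low, from inhibitory (14.5 ± 4.80 CPM), CA1 (14.3 ± 2.69 CPM), CA3 (10.98 ± 2.72 CPM) and dentate granule (8.60 ± 3.57 CPM) down to subiculum or cortex neurons (6.94 ± 2.70 CPM), with no step between neighbours that passed. Excitatory neurons held 3.25% of the microglial level.

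Abca7, a related phospholipid transporter, was low and spread over neurons and glia. Its highest mean among the 11 types was in Cajal-Retzius cells (64.2 ± 35.7 CPM), at 10 to 38 nuclei and 1 to 10 Abca7 UMIs per library. They did not differ from microglia (42.0 ± 17.4 CPM) beyond their spread (higher in 7 of 8 libraries, adjusted p 0.144, exact permutation test). Inhibitory neurons (39.8 ± 10.8 CPM), subiculum or cortex neurons (38.2 ± 10.8 CPM), CA3 neurons (35.8 ± 11.2 CPM), OPC (33.3 ± 8.38 CPM), oligodendrocytes (30.2 ± 9.09 CPM) and CA1 neurons (23.1 ± 5.02 CPM) followed without a step that passed. The 1 step that passed was from CA1 neurons to astrocytes (10.8 ± 5.83 CPM), 2.21-fold in 8 of 8 libraries. Dentate granule neurons (10.6 ± 3.36 CPM) and fibroblasts (8.48 ± 9.19 CPM) were as low as astrocytes. Astrocytes, the highest of the 11 types for Apoe, were therefore among the lowest for Abca7.

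Abcg1, a transporter that moves sterols onto particles already carrying lipid, had its highest mean in oligodendrocytes. Oligodendrocytes had 145, 192 and 173 CPM in WT 1 to WT 3, 145, 179 and 173 CPM in GKO 1 to GKO 3, 153 CPM in J20;WT and 195 CPM in J20;GKO. OPC had 93.0, 118 and 209 CPM in WT 1 to WT 3, 63.7, 71.6 and 104 CPM in GKO 1 to GKO 3, 84.7 CPM in J20;WT and 135 CPM in J20;GKO. The OPC values rest on 28 to 97 UMIs per library. WT 3 was the highest and GKO 1 the lowest, and in all but WT 3 oligodendrocytes were higher. Oligodendrocytes (169 ± 19.8 CPM) and OPC (110 ± 46.2 CPM) did not differ by the exact permutation test (adjusted p 0.0541), and passed it with stricter gates. OPC did not differ from microglia either (OPC higher in 5 of 8 libraries, adjusted p 0.422, exact permutation test). Microglia (88.6 ± 21.8 CPM), Cajal-Retzius cells (62.8 ± 34.5 CPM), dentate granule (45.95 ± 5.18 CPM), subiculum or cortex (44.7 ± 5.59 CPM), inhibitory (35.4 ± 4.85 CPM), CA1 (32.9 ± 2.88 CPM) and CA3 neurons (28.1 ± 2.62 CPM) followed. No neighbours in that run passed the test. CA3 neurons exceeded fibroblasts (12.5 ± 10.6 CPM), and astrocytes were last at 4.37 ± 1.84 CPM. Astrocytes thus held much Apoe and Clu beside moderate Abca1 and little Abcg1 or Abca7, where much and little refer to the order of cell types within each gene.

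Lrp1, a large endocytic receptor for Apoe and many other ligands, was high in several non-neuronal types and nearly missing from oligodendrocytes. Fibroblasts (606 ± 179 CPM), OPC (554 ± 105 CPM) and microglia (471 ± 97.6 CPM) formed the top, and neither pair of neighbours differed (adjusted p 0.894 and 0.234, exact permutation test). With clusters in place of the gates OPC had the highest mean. Microglia exceeded Cajal-Retzius cells (285 ± 48.6 CPM) 1.64-fold, and astrocytes (280 ± 13.1 CPM) exceeded inhibitory neurons (125 ± 8.61 CPM) 2.23-fold, each in 8 of 8 libraries. CA1 (122 ± 8.39 CPM), subiculum or cortex (109.9 ± 12.2 CPM), CA3 (105 ± 9.32 CPM) and dentate granule neurons (83.9 ± 11.2 CPM) followed. Oligodendrocytes were last at 13.1 ± 3.30 CPM, with 8.10 CPM in the lowest library, a median of 12.8 CPM and 19.9 CPM in the highest. Dentate granule neurons exceeded them 6.14-fold in 8 of 8 libraries (adjusted p 0.0352, exact permutation test). The receptor was thus high in OPC and low in mature oligodendrocytes, the reverse of Apod.

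Vldlr, the very-low-density lipoprotein receptor, was highest in oligodendrocytes, where Lrp1 was lowest, and OPC came second for both. Oligodendrocytes had 73.9, 135 and 134 CPM in WT 1 to WT 3, 94.97, 105 and 129.6 CPM in GKO 1 to GKO 3, 135 CPM in J20;WT and 128 CPM in J20;GKO. As with Apoe, the first date gave the 2 lowest values. The oligodendrocyte mean of 117 ± 23.0 CPM was 1.79-fold that of OPC (64.7 ± 13.2 CPM), and OPC exceeded inhibitory neurons (46.0 ± 6.86 CPM) 1.39-fold, each in 8 of 8 libraries (adjusted p 0.0352, exact permutation test). Dentate granule (37.1 ± 6.59 CPM), CA1 (31.9 ± 3.61 CPM), CA3 (23.1 ± 5.96 CPM) and subiculum or cortex neurons (22.9 ± 5.13 CPM) came next, then Cajal-Retzius cells (17.9 ± 14.6 CPM) and astrocytes (13.2 ± 2.06 CPM). Fibroblasts (7.52 ± 10.5 CPM) and microglia (4.65 ± 3.06 CPM) were last. No step below inhibitory neurons passed.

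Lrp8, the receptor ApoER2, had its highest means among the 11 types in neurons and astrocytes, with OPC at the level of CA1 neurons. Inhibitory neurons (126 ± 17.7 CPM) and astrocytes (109 ± 20.3 CPM) were highest and did not differ by the exact permutation test (inhibitory higher in 7 of 8 libraries, adjusted p 0.0680). Cajal-Retzius cells (98.5 ± 49.8 CPM) and CA3 neurons (97.6 ± 28.4 CPM) came next. CA3 neurons exceeded dentate granule neurons (81.6 ± 23.2 CPM) 1.19-fold in 8 of 8 libraries, a small step that was steady between mice. Subiculum or cortex neurons had 77.6 ± 17.0 CPM, OPC 60.2 ± 9.49 CPM and CA1 neurons 59.5 ± 15.03 CPM. CA1 neurons exceeded microglia (7.18 ± 4.85 CPM, from 0 to 9 UMIs per library) 9.22-fold (adjusted p 0.0352, exact permutation test). Oligodendrocytes (7.01 ± 2.77 CPM) and fibroblasts (2.69 ± 5.62 CPM) did not differ from microglia step by step. The 3 receptors thus divided the oligodendrocyte lineage, with Lrp1 and Lrp8 lower and Vldlr higher in oligodendrocytes than in OPC. That comparison was part of the tested pairs for Vldlr alone. Gm16217 on the opposite strand overlaps Lrp1, and Lrp8os1 and Lrp8os2 overlap Lrp8, all 3 counted as genes of their own.

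Types with at least 10 nuclei in fewer than 6 libraries are given pooled over libraries, with an exact Poisson 95% interval that covers counting error only. The 54 border macrophages held 2624 Apoe UMIs, or 23020 CPM (22150 to 23920 CPM), far above the level of microglia. Astrocytes pooled in the same way were lower, at 19260 CPM (19170 to 19340 CPM). Border macrophages lay below astrocytes in GKO 1 (14280 against 14410 CPM) and J20;WT (15230 against 20720 CPM), and above them in the other libraries. The Abca1 level of border macrophages was 535 CPM (409 to 687.5 CPM), above that of microglia pooled in the same way, 338 CPM (320.9 to 356.2 CPM). It was above that of microglia in all libraries but WT 2 and GKO 1. The 125 choroid plexus nuclei held 1431 CPM of Apoe (1357 to 1509 CPM), 392 CPM of Clu (353.5 to 434 CPM) and 127.6 CPM of Lrp8 (106 to 152.2 CPM). The 52 endothelial nuclei had 31 Lrp8 UMIs, or 357 CPM (242.5 to 507 CPM). Mural cells (115 nuclei) had 72.1 CPM of Abca7 (39.4 to 121 CPM). No test was made on these types, and they are not in the order of types above.

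For each member the 3 genes with the most similar level over the 11 types were found by Pearson correlation of log2(CPM + 1) of type means, over 11968 genes. The points share libraries and depth, so r is a description. For the particle genes they were Lrp4 (r = 0.983), Atp6v0e and Dhrs7 for Apoe, Ttpa (r = 0.982), Aass and Tmem129 for Clu, and Ptgds (r = 0.988), Adamtsl4 and Car14 for Apod. For the exporters they were As3mt (r = 0.987), Spata1 and Zscan29 for Abca1, Fam193b (r = 0.909), Dhx37 and Zbed4 for Abca7, and Lrrc8d (r = 0.908), Zfp74 and Lrrc8dos for Abcg1. For the receptors they were Hnmt (r = 0.950), Slc18b1 and Zeb1 for Lrp1, Kif3c (r = 0.957), Tmeff1 and Kif3a for Vldlr, and Gm37679 (r = 0.980), Sgip1 and Gpr162 for Lrp8. No member was among the 3 nearest genes of another, and over the 11 types Vldlr and Lrp1 had r = -0.684.

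The wider lipid transport list held 65 genes beside the 9, and the most abundant in each role are given here. Other apolipoproteins were scarce: Apoa1 reached at most 8.70 ± 7.12 CPM, Apoc1 8.06 ± 2.90 CPM, Apoh 3.26 ± 1.87 CPM and Apob 1.93 ± 5.47 CPM in their highest type. Oligodendrocytes led Abca2 (636 ± 77.2 CPM, against 98.5 CPM in astrocytes) and Abca8a (254 ± 96.2 CPM), and microglia led Abca9 (469 ± 120.2 CPM), all 3 lipid transporters. Abca3 ranged from 88.3 ± 34.3 CPM in Cajal-Retzius cells to 53.1 ± 8.04 CPM in oligodendrocytes. Among receptors, Trem2, a microglial receptor that binds lipids and Apoe, stood at 1232 ± 578 CPM in microglia and at 10.7 ± 11.1 CPM in the next type. Lrp1b was at 3380 ± 395 CPM in dentate granule neurons and 3348 ± 299.5 CPM in OPC, Sorcs1 at 772 ± 90.2 CPM and the sorting receptor Sort1 at 349 ± 55.3 CPM in oligodendrocytes. Reelin (Reln), a ligand of Vldlr and ApoER2, was at 6942 ± 2032 CPM in Cajal-Retzius cells and 409 ± 112 CPM in inhibitory neurons. Dab1, the adaptor bound by those receptors, was at 3039 ± 304 CPM in dentate granule neurons. Mylip, the ligase that marks them for degradation, was at 394 ± 43.2 CPM in microglia, and the engulfment adaptor Gulp1 at 376 ± 170.2 CPM in fibroblasts. Ligand and adaptor were thus highest in neurons, where Lrp8 also lay high. Astrocytes led Lcat, the enzyme that esterifies cholesterol on particles (233 ± 38.3 CPM, against 14.6 CPM in OPC), and the sterol regulators Srebf2 (181 ± 32.0 CPM) and Srebf1 (153 ± 22.4 CPM). Phospholipid transfer protein (Pltp) was highest in fibroblasts (251 ± 84.1 CPM), the lysosomal cholesterol carrier Npc2 in microglia (241 ± 78.6 CPM) and its partner Npc1 in oligodendrocytes (203 ± 31.1 CPM). Of the lipid-sensing receptors, Ppard was highest in microglia (158 ± 19.9 CPM) and Ppara in fibroblasts (116 ± 61.2 CPM).

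Between GKO and WT mice (3 against 3), the question was whether loss of Gsap alters these genes in any cell type. No member passed the test over all genes. edgeR on UMIs summed by mouse and type called 0 of 93 member tests (adjusted p under 0.05 and log2 fold change over 0.3 either way), and 0% of all 125601 gene tests over 12 groups, where the excitatory class also holds its subfields. At an unadjusted p under 0.05 there were 5 member tests, beside 1.68% of all gene tests. The smallest adjusted p of a member was 0.996. This fit had no term for date. In excitatory neurons it gave 190 of 17682 genes an unadjusted p under 0.05, and edgeR with date as a term gave 529. With date as a term no gene was called in any group. DESeq2, without date, called 0 member tests. All 9 members passed the filter on low counts in 8 of the 12 groups, 8 passed in astrocytes, 7 in microglia, 4 in fibroblasts and 2 in Cajal-Retzius cells. The median log2 fold change of the members was above 0 in fibroblasts (0.27) and CA3 neurons (0.05). In the other 10 groups it was below 0, from -0.26 in dentate granule neurons to -0.01 in microglia, and over all genes tested in a group it was -0.03 to 0.01.

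All 3 GKO libraries lay below all 3 WT libraries in 7 of the 93 member tests, beside 3.64% of all gene tests. They lay above in 1, beside 2.6% of all gene tests. The tests below were Clu in astrocytes, inhibitory neurons and subiculum or cortex neurons, Apoe and Vldlr in dentate granule neurons, Abcg1 in inhibitory neurons and Lrp8 in oligodendrocytes. The test above was Apod in fibroblasts, at 4950 ± 438 CPM in WT and 7619 ± 1893 CPM in GKO (SD, n = 3 each). The types share libraries, so these 8 are not independent, and none passed the test.

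**Figure D3:**
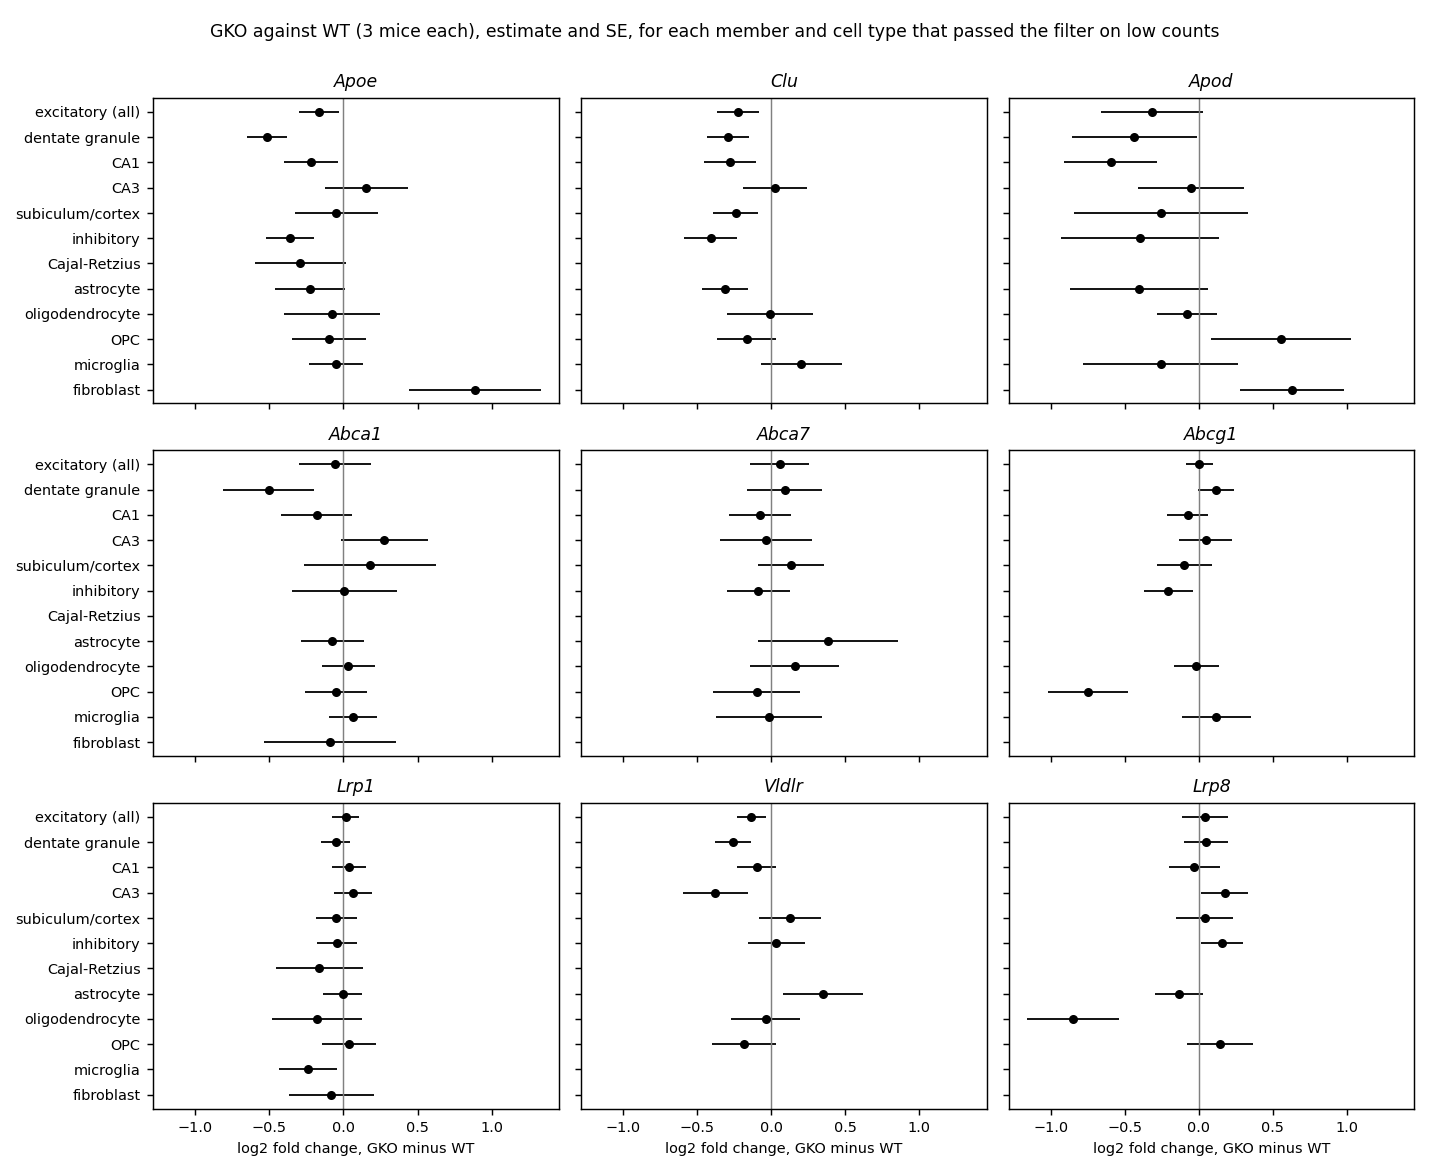
Log2 fold change (GKO minus WT, 3 mice each) with its SE for each member, by cell type, where the gene passed the filter on low counts. Estimates lie on both sides of 0, Abcg1 in OPC sits at -0.75 and Lrp8 in oligodendrocytes at -0.85, and no estimate passed the adjusted threshold.

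Clu in astrocytes averaged 3748 ± 346 CPM in WT and 3007 ± 493 CPM in GKO (SD, n = 3 each), a log2 fold change of -0.31 ± 0.15 (SE). The groups did not overlap by a narrow margin, with the lowest WT library at 3354 CPM and the highest GKO library at 3332 CPM. The log2 ratio was -0.05 in the first date (1 mouse each) and -0.45 in the second (2 mice each). Apoe in astrocytes had a log2 fold change of -0.23 ± 0.23 (SE), with a ratio of 0.08 in the first date and -0.33 in the second. The estimates for the 2 astrocyte apolipoproteins therefore came mainly from the second date. WT and GKO astrocytes overlapped in Apoe.

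Apoe in dentate granule neurons was 212, 224 and 243 CPM in WT 1 to WT 3 and 137, 199 and 135 CPM in GKO 1 to GKO 3. All GKO values lay below all WT values, with a log2 fold change of -0.51 ± 0.13 (SE), -0.63 within the first date and -0.48 within the second. With clusters in place of the gates the log2 fold change was -0.07, and without called doublets it was -0.27. Doublet removal took at most 1 nucleus from WT 1 and 0 from GKO 1, where the calling did not work. The shallow nuclei that passed no gate showed a like order, with 1661, 1234 and 1380 CPM of Apoe in WT 1 to WT 3 and 1141, 981 and 538.5 CPM in GKO 1 to GKO 3. The part of free RNA in the difference was not tested.

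Abcg1 in OPC, with the values given above, had a log2 fold change of -0.75 ± 0.27 (SE) and lay lower in GKO within each numbered pair, though WT 1 (93.0 CPM) lay below GKO 3 (104 CPM). It did not pass (adjusted p 0.999, edgeR). Numbers are those of the sample titles. Within the second date, residuals over all nuclei correlated at 0.301 and 0.325 for equal numbers and at 0.308 and 0.446 for unequal ones. The numbering therefore does not establish pairs of mice there, also in the block below. With replicate number as a block in edgeR, Abcg1 fell by 0.77 on the log2 scale (SE 0.16, adjusted p 0.0206), 1 of 5 genes called among 9242 in OPC (0.0541%). The other 4, outside the rule for named genes, were Kcnip3 (-0.51), Kcnip1 (0.52) and the mitochondrial RNAs mt-Nd5 (0.95) and mt-Co2 (0.42), in log2 fold change. No other setting called it. In those the adjusted p ran from 0.452 to 1 and the log2 fold change from -0.99 to -0.39, the latter without WT 3. Within dates the log2 ratio was -0.54 and -0.88. Lrp8 in oligodendrocytes, where it is near its lowest, averaged 9.62 ± 2.26 CPM in WT and 5.43 ± 0.803 CPM in GKO, with a log2 fold change of -0.85 ± 0.31 (SE). Clu in inhibitory neurons averaged 113 ± 25.3 CPM in WT and 82.4 ± 15.3 CPM in GKO, with a log2 fold change of -0.41 ± 0.18 (SE). For both genes the ratio was below 0 in each date.

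In the wider list of 65 lipid transport genes, edgeR called 0 of 430 tests, with 7 at an unadjusted p under 0.05, beside 1.68% of all gene tests, and a smallest adjusted p of 0.996. DESeq2 called none of them either. Trem2 in microglia averaged 1249 ± 623 CPM in WT and 809.7 ± 331 CPM in GKO, with a log2 fold change of -0.64 ± 0.55 (SE). Most of this spread lay between dates, with 531 and 490 CPM in WT 1 and GKO 1 against 1570, 1646, 789 and 1151 CPM in the second date. In the second date alone, a comparison of 2 against 2 mice chosen after seeing the data, Trem2 fell by 0.74 on the log2 scale (adjusted p 0.0312, edgeR), 1 of 11 genes called among 7706 in microglia. The 3 of these that rose were the mitochondrial RNAs mt-Nd1 (0.90), mt-Nd2 (0.75) and mt-Nd3 (0.89), outside the rule for named genes. Rxrg, a partner of lipid-sensing nuclear receptors, was called in subiculum or cortex neurons when genes with low counts were kept, with a log2 fold change of 2.26 (adjusted p 0.0235, edgeR). Neither was called in any of the other settings run.

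The J20 pair, 1 library each, adds the question of how the 9 genes compare between J20;GKO and J20;WT when the human APP transgene is present. With 1 mouse a group no test was made, and genotype cannot be told apart from date or sex-linked expression. A ratio past 0.3 on the log2 scale was counted where the 2 libraries held at least 50 UMIs together. In excitatory neurons 3 of 9 members lay above (16.3% of all genes) and 1 below (21.1%). Inhibitory neurons had 3 of 9 above (17.5%) and 2 below (20.5%). Astrocytes had 3 of 6 above (20.9%) and 1 below (28.3%). Oligodendrocytes had 1 of 7 above (17%) and 3 below (28.3%). OPC had 3 of 7 above (21.3%) and 0 below (21.5%). Microglia had 2 of 4 above (27.6%) and 0 below (21.6%). In all, 22 of 42 member values were past the limit. Of these, 15 lay above, beside 16.3% to 27.6% of all genes by class. The other 7 lay below, beside 20.5% to 28.3% of all genes. All 42 values come from the same 2 libraries and are not independent.

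Lrp8 was higher in J20;GKO than in J20;WT in neurons and astrocytes. In excitatory neurons it was 112 CPM (107 to 118 CPM, exact Poisson 95% interval) in J20;GKO and 59.2 CPM (55.3 to 63.4 CPM) in J20;WT, a log2 ratio of 0.92. The 6 WT and GKO libraries spanned 54.8 to 83.1 CPM, so J20;GKO lay above all of them and J20;WT within them. The log2 ratio was 1.13 in dentate granule, 1.09 in CA3 and 0.87 in CA1 neurons, and J20;GKO again lay above the other 6 libraries. In inhibitory neurons the log2 ratio was 0.52, but J20;GKO (140.1 CPM) lay within the other 6 libraries (106.7 to 149.8 CPM) and J20;WT (97.8 CPM) below them. In astrocytes Lrp8 was 143 CPM (116 to 174 CPM) against 85.6 CPM (66.6 to 108 CPM), a log2 ratio of 0.74, where the other 6 libraries spanned 83.01 to 125.8 CPM. J20;GKO was thus above J20;WT beyond counting error in each of these types, while the spread between mice of these genotypes could not be measured.

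Apoe differed in direction between cell types in this pair. In microglia it was 1004 CPM (924 to 1090 CPM) in J20;GKO and 586 CPM (511 to 669 CPM) in J20;WT, where the other 6 libraries spanned 595 to 889 CPM. In inhibitory neurons it was 82.4 CPM against 279 CPM, a log2 ratio of -1.76, where the other 6 libraries spanned 154.3 to 269.6 CPM. Inhibitory neurons held only 1.00% of the astrocyte level of Apoe, and the part of free RNA in this difference was not tested. In astrocytes, its main source, it was 19900 CPM against 20720 CPM, a log2 ratio of -0.06. Clu was lower in J20;GKO in oligodendrocytes (47.7 against 91.6 CPM) and in astrocytes (3359 against 4138 CPM, a log2 ratio of -0.30). Lrp1 in excitatory neurons was 118 CPM in J20;GKO and 93.3 CPM in J20;WT, which lay above and below the range of the other 6 libraries, 99.0 to 111.5 CPM. Abca1 in microglia, at 455 CPM in J20;GKO and 367 CPM in J20;WT, was above the range of the other 6 libraries, 263.2 to 339.6 CPM, in both mice. The J20;WT value rests on 136 UMIs, and this order does not take counting error into account.

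**Figure D4:**
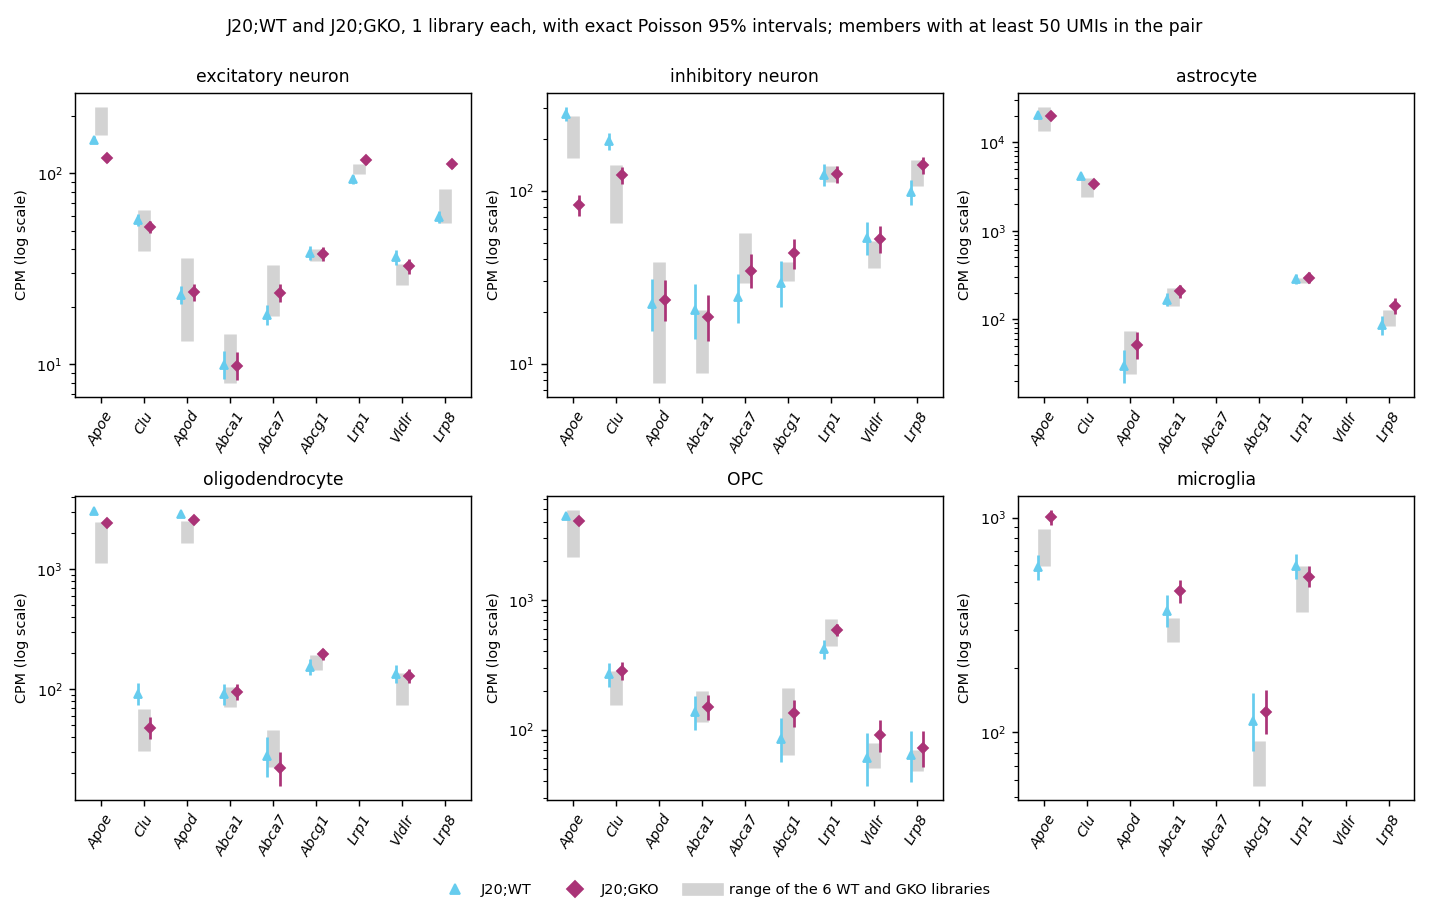
CPM (log scale) of the members with at least 50 UMIs in the pair, in 6 cell classes, for J20;WT and J20;GKO (1 library each, exact Poisson 95% intervals), with the range of the 6 WT and GKO libraries in grey. Lrp8 in excitatory neurons is at 112 CPM in J20;GKO and 59.2 CPM in J20;WT, and Apoe in inhibitory neurons at 82.4 and 279 CPM. The part of free RNA in these Apoe values was not tested.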

How the data were processed

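The 8 libraries were hippocampal nuclei of 3 WT, 3 GKO, 1 J20;WT and 1 J20;GKO mouse. The authors aligned the reads and made the deposited matrices of raw UMI counts with Cell Ranger 3.0.2 (mm10). Nuclei over 5% mitochondrial UMIs, under 200 or over 7500 genes were left out, and totals kept per library were 21020159 to 43310978 UMIs. Nuclei were typed by summed UMIs of 17 marker lists (138 genes), and by 28 Leiden clusters (scanpy 1.11.5) and Scrublet doublet calls as alternatives. Scrublet called 3.45 to 6.50% of nuclei in 6 libraries but 1 nucleus in WT 1 and 0 in GKO 1, where it did not work. UMIs were summed by library and type, given as CPM, and compared within libraries by an exact two-sided sign-flip permutation test (pseudocount 1, Benjamini-Hochberg over 90 pairs). GKO and WT were compared with edgeR 4.0.16 (TMM, filterByExpr, robust quasi-likelihood, two-sided, Benjamini-Hochberg over all genes of a type) and with DESeq2 1.42.0, in R 4.3.3.

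The replicate block assumes that equal numbers pair. Over 15401 genes, residuals of equally numbered WT and GKO libraries correlated at r = 0.693, 0.301 and 0.325, those of unequal numbers within the second date at 0.308 and 0.446, and those between dates at -0.553 to -0.437, so equal numbers went with equal dates and, within the second date, no more than unequal ones. Named were the 9 members, the 3 most similar genes of each (at least 20 CPM in 1 type), up to 4 genes with the highest CPM in each role of a 65-gene lipid transport list and any called in it, 12 reference genes for free RNA, markers, Gsap and sex-linked genes. Alternatives were another pseudocount, clusters, stricter gates, doublet removal, a minimum of 1000 UMIs, each WT or GKO library left out, other normalizations and filters, and terms for replicate or date. Counting intervals are exact Poisson 95% intervals. The members and lists were chosen with earlier results of these data known.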

Additional observations from a re-analysis of the deposited data

How the results depend on the processing

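Counts of genes called between GKO and WT depended on the setting. For the 9 members the count was 1 (Abcg1 in OPC) with the replicate block against 0 in every other setting. Over all genes it was 2 with DESeq2, 25 with no filter on low counts, 9 with the replicate block, 22 in the second date alone and 0 to 3 on leaving out 1 mouse. For the 65-gene list it was 1 with no filter and 1 in the second date alone. The settings for that list, the second date alone, stricter gates for fold changes and the settings for the J20 pair were chosen after seeing the data. The cause of these differences was not tested. The highest type differed from the next in 5 members. That count was 0 on leaving out any 1 WT or GKO library (range 0 to 0) and 0 with the WT and GKO libraries alone, where the smallest adjusted p was 0.0611 to 0.117. The smallest p of the test is 0.0156 with 7 libraries and 0.0312 with 6. The highest type was higher than the next in every library kept for 5 to 6 members in each of these settings. The highest type itself was the same in all settings for every member but Lrp1. Apoe in excitatory neurons was 0.560% of astrocytes with clusters and 0.653% without called doublets, and 0.861% to 1.03% in the other settings. Doublet removal left WT 1 and GKO 1 almost unchanged. Of 1485 member fold changes under 16 alternatives, 1415 moved by under 1 SE, and 160 changed sign. In the J20 pair, 157 of 166 values stayed within their counting interval. Fibroblasts, at 14 to 46 nuclei per library, limit what depth can show there.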
